A study of Mus musculus with 4 samples.

Results

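The response of the old eye to laser burns was read from 2 droplet single-cell RNA libraries of retina and choroid of wild-type mice over 18 months old, 1 from eyes with no lesion and 1 from eyes taken 3 days after laser photocoagulation. The burns (532 nm, 200 mW, 0.15 s, 100 µm spot) are made to start choroidal neovascularisation (CNV), the growth of new vessels out of the choroid. Members were the cells whose matrix columns carry the code of an aged library, 6676 with no lesion and 7731 after laser, together 14407 of the 36701 cells of the series. The other 22294 cells come from mice 6 to 8 weeks old, with and without the same burns, and serve here only as values set beside the aged ones. Retina and choroid-sclera were digested apart with papain, rods were pulled out of the retinal suspension with antibodies to CD73, and the suspensions were joined before loading. The number of animals and eyes behind a library is not given in the sources used here. With 1 library a group there was no replicate and no test of any difference, and laser cannot be told apart from other differences between the animals or libraries. All intervals below are exact 95% intervals that cover counting error only.

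A laser burn breaks the pigment epithelium and the membrane beneath it, and vessels, fibroblasts and leukocytes of the choroid enter the wound. The retinal pigment epithelium (RPE) recycles visual pigment and nourishes the photoreceptors. Müller glia span the retina, clear glutamate and take on a reactive state after injury that is marked by the filament protein GFAP and runs largely through cytokine receptors of the gp130 family and STAT3. Interferons are secreted alarm proteins: type I interferon acts through STAT2 and IRF9, which help to bind a short response element upstream of genes such as Ifit3, Isg15 and Oasl2, whose products restrain viruses.

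The unlesioned library held 50848238 UMIs and the laser library 69011793, with medians of 6428 and 6875 UMIs per cell, and 14 cell barcodes occurred in both. Each cell was classed by the UMIs of its own marker genes (at least 3 UMIs of at least 2 markers, at 0.2 or more of the level typical of the class, with no other class above 0.5 of the best), which placed 92.0% and 86.2% of cells. Markers of more than 1 class left 269 and 432 cells as mixed, 265 and 574 cells reached no class, and 64 cells of the laser library with adipocyte genes were set aside. Such a class is a range on a scale of marker UMIs and not a type drawn by its own border. Cells near a limit of the rule numbered 23 of 179 and 45 of 528 macrophages and monocytes, 91 of 1037 and 109 of 1386 fibroblasts, 6 of 265 and 10 of 268 Müller glia, and 0 of 27 and 23 of 110 neutrophils. In the 10 classes ranked below the median cell held between 18 and 240 UMIs of its own markers and at most 8 UMIs of the markers of any other class. The markers fitted the labelled tissue: Rpe65, the visual cycle isomerase, was found in 99.6% and 99.3% of RPE cells. No cell was classed as a ganglion or horizontal cell in either library.

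The share of cells in each class differed between the libraries. RPE cells were 1054 of 6676 (15.8%) with no lesion and 298 of 7731 (3.85%) after laser, a ratio of 0.244 (0.214 to 0.278). Macrophages and monocytes went the other way, from 179 cells (2.68%) to 528 (6.83%), a ratio of 2.55 (2.15 to 3.03). Neutrophils, which are the first phagocytes to reach a wound, were 27 cells (0.404%) and 110 cells (1.42%), a ratio of 3.52 (2.29 to 5.58). Rods made up 18.3% and 9.21% of cells and bipolar cells, the second neurons of the visual pathway, 8.06% and 18.7%. Rods were depleted with antibodies and the suspensions were mixed, so these retinal shares are set in part by the preparation. The largest ratio, 12.1 (8.20 to 18.6), belonged to keratin-expressing surface epithelium, with 27 and 379 cells, a tissue of the front of the eye that neither labelled tissue contains. Müller glia (265 and 268 cells), endothelial cells (406 and 450), fibroblasts (1037 and 1386), T cells (155 and 168) and mural cells, the contractile cells around vessels (213 and 167), kept ratios between 0.677 and 1.15. In suspensions like these, fewer cells of a type and poorer release from the tissue cannot be told apart.

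At matched depth macrophages and monocytes showed the most genes past 2-fold, followed by Müller glia, and T cells and cones the fewest. To compare classes at 1 depth, the summed UMIs of each class were thinned to 500000 in both libraries, and genes with at least 100 UMIs over the pair were counted, without the class markers. In macrophages and monocytes 83 genes were higher and 55 lower after laser among 1986 measured (6.95%). In Müller glia 78 were higher and 26 lower of 2015 (5.16%), in endothelial cells 57 and 41 of 2079 (4.71%), in fibroblasts 57 and 26 of 1860 (4.46%), and in mural cells 49 and 35 of 1961 (4.28%). The response of RPE cells covered 28 and 21 of 1558 genes (3.15%) and that of rods 43 and 17 of 2084 (2.88%). At the low end stood bipolar cells with 14 and 15 of 1964 (1.48%), cones with 18 and 7 of 2184 (1.14%) and T cells with 12 and 10 of 1954 (1.13%). Over 10 other random draws the share ran from 6.32% to 7.19% in macrophages and monocytes and from 4.93% to 6.17% in Müller glia. The ranges of endothelial cells (4.16% to 5.04%), fibroblasts (4.19% to 5.02%) and mural cells (3.35% to 4.70%) overlapped one another, as did those of bipolar cells, cones and T cells. These ranges cover noise of the thinning only. Without doublets 67 genes were higher and 48 lower of 1949 in macrophages and monocytes, and 82 and 34 of 2011 in Müller glia. At 200000 UMIs the counts were 95 and 91 of 1989 and 104 and 82 of 2028, so the 2 classes stood close. As the mean of the cells' own CPM macrophages and monocytes had 65 and 31 of 1986. Müller glia, with 56 and 6 of 2015, then stood below mural cells (49 and 26 of 1961) and fibroblasts (57 and 12 of 1860). With cells that hold 2 markers of another class left out, Müller glia had 124 and 26 of 1976. Macrophages and monocytes could not be ranked there, so the order of the 2 classes was not settled under that rule.

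**Figure D1:**
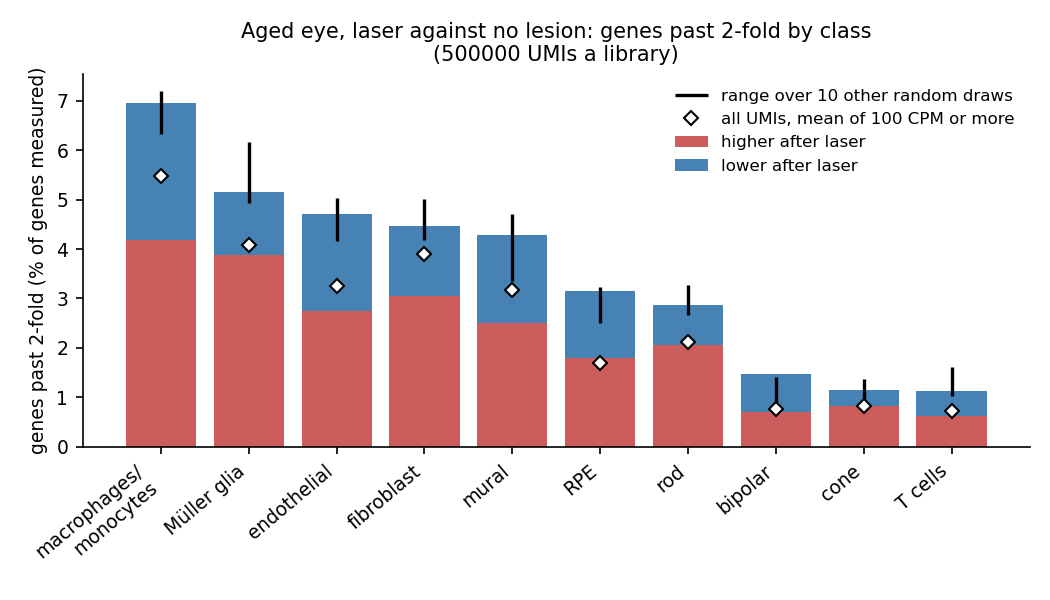
Share of measured genes past 2-fold in 10 cell classes of the aged eye, laser against no lesion, as stacked bars for genes higher and lower after laser at 500000 UMIs a library. Black lines span 10 other random draws and diamonds give the share with all UMIs among genes of 100 CPM or more; macrophages and monocytes stand highest at 6.95% and T cells lowest at 1.13%.

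The size of the differences followed a similar order. The median absolute log2 ratio over measured genes was 0.30 in macrophages and monocytes and in Müller glia, 0.29 in endothelial cells, 0.26 in mural cells, fibroblasts and RPE, 0.23 in rods, 0.22 in T cells and 0.20 in bipolar cells and cones. Genes past 4-fold numbered 19 in macrophages and monocytes, 18 in Müller glia, 11 in fibroblasts, 7 in mural cells, 6 in endothelial cells, 4 in RPE cells, 2 each in rods and T cells, and 0 in bipolar cells and cones. Part of these counts is noise of the thinning: 98 of the 138 genes of macrophages and monocytes and 66 of the 104 genes of Müller glia were still past 2-fold with all UMIs, against 25 of 49 in RPE cells, 12 of 29 in bipolar cells and 12 of 22 in T cells. With all UMIs and genes of 100 CPM or more (CPM scales the UMIs of a gene by the total UMIs of its class) macrophages and monocytes remained first at 5.47%, ahead of Müller glia at 4.08% and fibroblasts at 3.90%. By number, with all UMIs and the floor of 100 UMIs, fibroblasts stood first with 493 genes higher and 116 lower of 11705, against 294 and 180 of 7981 in macrophages and monocytes.

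At matched depth most genes that passed 2-fold did so in 1 class. Of 2011 genes measured in at least 4 classes, 225 (11.2%) passed 2-fold in at least 1 class, 164 of those (72.9%) in 1 class alone, and 10 in opposite directions in different classes. Part of these passes is noise of the thinning. Between 41.4% (bipolar cells) and 74.7% (fibroblasts) of the genes past 2-fold in a class stayed past it with all UMIs. With all UMIs 574 of 9386 genes were higher in exactly 1 class, 164 in 2 and 74 in 3. Lower were 354, 35 and 6. Only 7 of the 2011 (0.348%) passed in the same direction in 4 or more classes, 5 higher and 2 lower. Free RNA in the suspension puts UMIs of an abundant cell type into all others, so a guard was used that asks for at least 0.1 of the level in the class with the highest level. With the guard 2 genes remained in 4 or more classes, and both are induced by interferon: Bst2, a membrane protein that tethers budding viruses, and Ifit3. Genes named by the rule for sharing also included Ly6a and Rnf213, each higher in endothelial cells, fibroblasts and macrophages, and Osmr, a receptor subunit for oncostatin M, higher in RPE, Müller glia and mural cells.

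With all UMIs, 45 of 9386 genes (0.479%) passed 2-fold in 1 direction in 5 or more classes, 40 higher and 5 lower. Only 9 of the 40 kept the guard in 5 or more classes: Bst2 and Ifit3 in 7 classes, Oasl2 and Isg15 in 6, and Ifit1, Lgals3bp, Rnf213, Stat2 and Usp18 in 5. Of these 9, 7 stood on one of the interferon gene lists. The others included Spp1, Fabp5 and C1qa, genes of macrophages, whose share of cells was larger after laser, and 9 of the 40 were highest in bipolar cells, whose share was larger too. None of the 5 lower genes kept the guard in 5 classes, and 3 of them (Ttr, Ptgds and Rgr) were highest in RPE, whose share was smaller. Levels of other cells' genes moved with the libraries in this way in most classes: the summed markers of surface epithelium were at 0.899 to 4.58 CPM with no lesion and at 27.4 to 74.9 CPM after laser across the 10 ranked classes. The part of such RNA in the values without the guard was not tested.

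**Figure D2:**
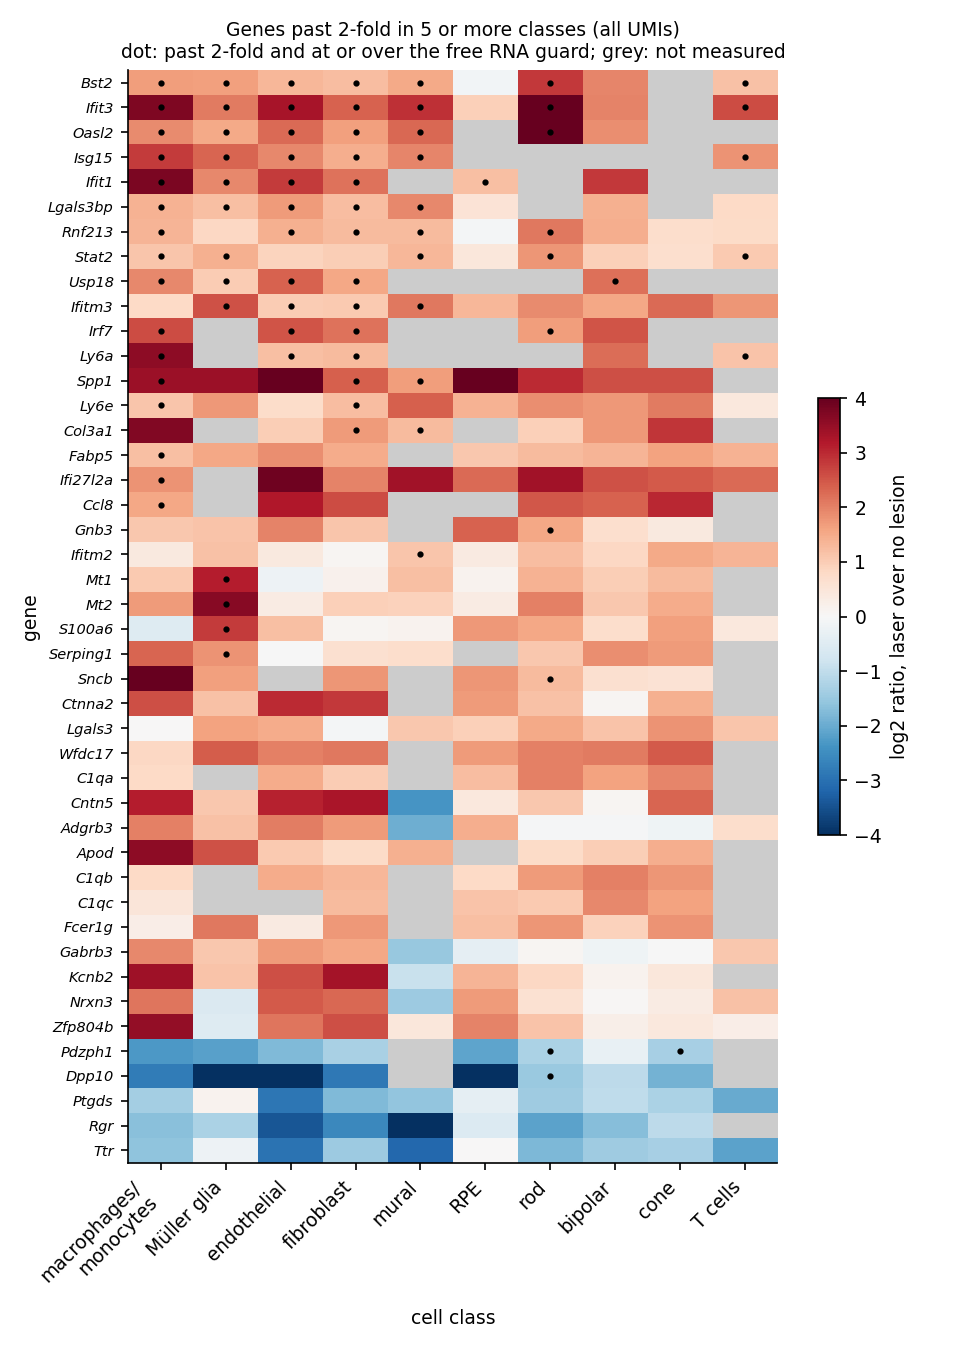
Log2 ratio, laser over no lesion, of genes past 2-fold in 5 or more classes of the aged eye (rows) in 10 cell classes (columns), with red higher and blue lower after laser and grey not measured. The unnamed gene model Gm30382, 1 of the 45 genes, is not drawn. Dots mark values past 2-fold that keep the free RNA guard, and the 9 genes at the top keep it in 5 or more classes.

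The promoters of the genes shared most widely are shown because 5 of the 8 matched to RefSeq hold the core of the interferon response element, written TTCNNTTTC and searched on both strands from 250 bases before to 50 after the start. The core stood in 2638 of 27025 promoters of that length (9.76%), in 10 of the 14 matched genes of the type I interferon list (71.4%) and in 10 of the 15 matched genes of the interferon gamma list (66.7%). The 150 bases before the start of 4 of the 5 are given 5′ to 3′ on the strand of the gene, from RefSeq on GRCm38.p6, with overlapping and single matches in capitals, which read as the reverse complement where the match lies on the other strand. They belong to Isg15 (chr4:156200819-156200968, minus strand), Ifit3 (chr19:34583379-34583528, plus strand), Ifit1 (chr19:34640739-34640888, plus strand) and Bst2 (chr8:71537473-71537622, minus strand).
Isg15: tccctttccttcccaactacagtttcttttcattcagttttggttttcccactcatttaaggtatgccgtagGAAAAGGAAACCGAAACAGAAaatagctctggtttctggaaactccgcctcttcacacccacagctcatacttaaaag
Ifit3: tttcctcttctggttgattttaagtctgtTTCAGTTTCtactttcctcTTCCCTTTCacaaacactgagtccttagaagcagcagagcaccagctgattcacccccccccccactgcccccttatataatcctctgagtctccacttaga
Ifit1: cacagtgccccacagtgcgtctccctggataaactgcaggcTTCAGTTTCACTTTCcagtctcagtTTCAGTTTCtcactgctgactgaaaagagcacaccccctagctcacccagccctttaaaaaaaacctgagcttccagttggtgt
Bst2: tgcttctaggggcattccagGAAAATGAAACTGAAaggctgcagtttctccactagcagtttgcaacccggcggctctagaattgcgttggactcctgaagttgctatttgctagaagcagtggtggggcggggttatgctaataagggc
Isg15 and Ifit1 hold 3 matches and Ifit3 and Bst2 hold 2 in these windows. No match was found in the 150 bases before Oasl2, Stat2, Rnf213 and Lgals3bp. The bases just after the start were also looked up in known transcripts of each gene. They were found for Isg15, Ifit3, Ifit1, Oasl2 and Lgals3bp but not for Bst2, Stat2 and Rnf213, whose starts were not borne out in this way. A match is a run of letters and not a measured binding site.

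The genes induced by type I interferon were higher after laser in most classes, and most of all in macrophages, endothelial cells and fibroblasts by number and in rods by ratio. Of 23 listed genes, the number past 2-fold upward was 20 of 21 measured in macrophages and monocytes (median log2 ratio 1.90), where 3.68% of all 7981 genes were higher and 2.26% lower. It was 17 of 19 in endothelial cells (median 2.09, background 3.18% and 1.25%), 17 of 20 in fibroblasts (median 1.86, background 4.21% and 0.991%) and 10 of 14 in Müller glia (median 1.49, background 3.49% and 0.995%). Mural cells had 7 of 7 (median 1.96, background 2.03% and 1.45%), rods 7 of 7 (median 2.82, background 2.26% and 0.711%) and T cells 6 of 8 (median 1.41, background 1.18% and 0.472%). Bipolar cells had 11 of 12 (median 2.06, background 1.81% and 0.686%), of which 2 kept the guard. Only 2 of 9 passed in RPE cells (median 0.64, background 1.15% and 1.37%) and 1 of 3 in cones (median 0.69, background 1.41% and 0.418%). Class medians over all genes lay between -0.07 and 0.06. A gene that reaches the floor of 100 UMIs only through the laser library had to differ. Among members with at least 50 UMIs in the unlesioned library, 13 of 14 passed in macrophages and monocytes, 10 of 12 in endothelial cells, 16 of 19 in fibroblasts, 8 of 12 in Müller glia, 4 of 4 in rods, 3 of 3 in mural cells, 2 of 4 in T cells, 2 of 9 in RPE cells, 1 of 2 in bipolar cells and 0 of 2 in cones.

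Summed over the list, macrophages and monocytes went from 1422 to 4726 CPM, 3.32-fold (3.20 to 3.45). Rods started low, at 131 CPM, and stood at 757 CPM after laser, 5.78-fold higher (5.26 to 6.37). Mural cells went from 337 to 1296 CPM (3.85-fold), fibroblasts from 848 to 2712 CPM (3.20-fold), endothelial cells from 979 to 2964 CPM (3.03-fold) and Müller glia from 616 to 1727 CPM (2.81-fold). The lowest ratios were those of RPE cells, from 646 to 994 CPM (1.54-fold), and of cones, from 183 to 269 CPM (1.47-fold). The summed level of RPE cells with no lesion was thus close to that of Müller glia. Single cells weighed unequally in it: the highest RPE cell with no lesion held 50 UMIs of the list and the highest Müller cell 11. The part of such cells in the RPE sum and ratio was not tested. In the young pair the ratios were 1.46 in macrophages, 2.49 in endothelial cells, 1.80 in fibroblasts, 4.4 in Müller glia, 2.79 in RPE cells and 3.04 in rods, and the difference between ages was not tested.

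**Figure D3:**
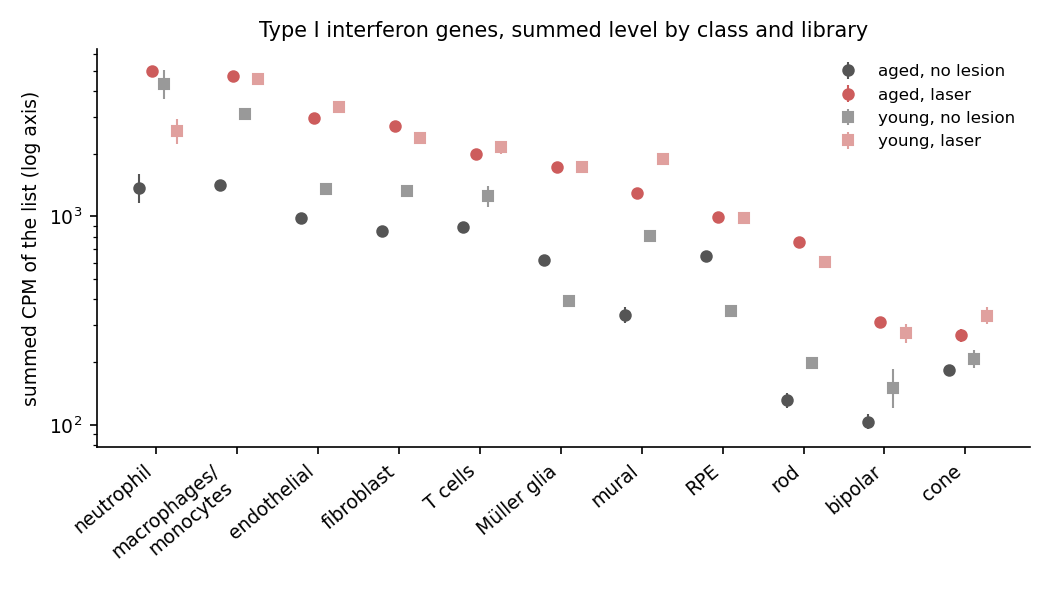
Summed CPM of the type I interferon gene list (log axis) in 11 cell classes in the 4 libraries, with exact Poisson 95% intervals. In the aged pair (circles) the laser value lies above the unlesioned one in each class, by 5.78-fold in rods and 1.47-fold in cones.

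Ifit3, whose product joins IFIT complexes that bind foreign RNA, shows the spread between classes. In rods it was at 3.89 CPM (17 UMIs) with no lesion and 87.4 CPM (195 UMIs) after laser, 22.5-fold higher (13.7 to 39.4). Macrophages and monocytes went from 16.0 CPM (34 UMIs) to 215 CPM (1198 UMIs), 13.5-fold (9.57 to 19.5), and endothelial cells from 19.6 to 191 CPM, 9.75-fold (7.36 to 13.2). Mural cells (12.9 and 97.0 CPM), T cells (20.7 and 125 CPM), fibroblasts (54.3 and 280 CPM) and Müller glia (70.4 and 294 CPM) rose by 7.5, 6.04, 5.15 and 4.18 times. RPE cells had the highest level in the unlesioned library among these classes, 177 CPM (1190 UMIs), and 340 CPM (622 UMIs) after laser, 1.92-fold (1.74 to 2.12), short of 2-fold. The laser level of RPE cells was still above that of Müller glia, fibroblasts and macrophages.

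Bst2 showed the same contrast. It was at 14.7 and 104 CPM in rods (7.07-fold, 5.34 to 9.48), at 161 and 515 CPM in macrophages and monocytes (3.20-fold, 2.86 to 3.59), at 258 and 641 CPM in endothelial cells (2.49-fold) and at 154 and 362 CPM in fibroblasts (2.36-fold). In RPE cells the level was 204 CPM with no lesion and 191 CPM after laser, 0.936-fold (0.830 to 1.05). Isg15, a ubiquitin-like protein joined to other proteins, went from 23.5 to 162 CPM in macrophages (6.89-fold), from 14.4 to 72.6 CPM in Müller glia (5.03-fold) and from 52.8 to 199 CPM in endothelial cells (3.76-fold). Oasl2, a member of the oligoadenylate synthetase family, went from 3.43 to 56.1 CPM in rods (16.3-fold). The signalling gene Stat2 also rose in rods, from 32.3 to 111 CPM (3.43-fold).

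The increase of the list as a whole was spread over cells. With each cell thinned to 1000 UMIs, the share of macrophages and monocytes with a UMI of the type I interferon list was 60.7% of 178 cells with no lesion and 92.4% of 523 after laser (96.6% and 99.4% unthinned). In rods it was 11.5% of 1186 and 38.8% of 672 cells (29.6% and 62.9% unthinned), in endothelial cells 54.8% and 82.3%, in fibroblasts 47.3% and 77.1%, and in Müller glia 37.3% and 69.5%. Cones, the class with the smallest ratio, had 15.1% of 840 and 21.1% of 535 cells, and RPE cells 36.1% of 1009 and 49.6% of 270. Ifit3 alone was found in fewer cells at this depth. It was in 0.253% and 3.72% of rods (1.22% and 7.87% unthinned), 2.25% and 17.4% of macrophages and monocytes, and 5.38% and 23.7% of Müller glia. The highest rod held 4 UMIs of the list with no lesion and 19 after laser. In RPE cells the order was the reverse, with 50 UMIs in the highest cell with no lesion and 12 after laser. Genes of antigen presentation by MHC class I, another target of interferon, rose in rods for 5 of 5 measured members (median log2 ratio 1.61). Of these 4 kept the guard, where 2.26% of all genes were higher and 0.711% lower. A member that reaches the floor only through the laser library had to differ here too. H2-K1, a heavy chain, went from 38.2 to 253 CPM there (6.62-fold, 5.56 to 7.91). In Müller glia 3 of 8 members rose, all 3 with the guard (background 3.49% higher and 0.995% lower). In bipolar cells 5 of 9 rose, 0 of them with the guard (background 1.81% and 0.686%). In endothelial cells, fibroblasts and macrophages 1 of 12 members passed (background 3.18%, 4.21% and 3.68% higher). Cones had 1 of 4, and RPE cells, mural cells and T cells 0 of 5, 0 of 4 and 0 of 11.

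Most measured genes of reactive glia rose in Müller glia. Of 18 listed genes of reactive glia, 11 of 14 measured rose and none fell (median log2 ratio 1.90), and 10 of the 11 kept the guard. Lcn2, which encodes the iron-siderophore carrier lipocalin 2, was at 65.5 CPM (186 UMIs) with no lesion and 1897 CPM (5587 UMIs) after laser, 29.0-fold higher (25.0 to 33.7), with 17.8% of its UMIs in 1 cell. Gfap went from 29.6 CPM (84 UMIs) to 250 CPM (735 UMIs), 8.43-fold (6.72 to 10.7). Timp1, an inhibitor of matrix proteases, went from 3.52 CPM (10 UMIs) to 143 CPM (420 UMIs), 40.5-fold (21.8 to 85), and Serpina3n, a secreted protease inhibitor, from 72.9 to 438 CPM, 6.01-fold (5.19 to 6.99). At 1000 UMIs per cell Lcn2 was found in 1.54% of 260 and 20.7% of 266 Müller cells (5.28% and 30.6% unthinned, 5 and 2 cells left out) and Gfap in 1.92% and 12% (6.42% and 34.3% unthinned). Cones had Lcn2 in 0.833% and 0.748% and Gfap in 0% of 840 cells, which allows a share of up to 0.357%, and 0.187%. The strongest gliosis genes were therefore found in a part of the Müller cells at this depth.

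Genes around STAT3 moved with them. Of the STAT3 and acute phase list 8 of 13 rose in Müller glia and none fell (median 1.36), 7 of 9 with the guard. Over all genes measured in the class 3.49% were higher and 0.995% lower. Members that reach the floor only through the laser library, such as Socs3, had to differ here too. Socs3, the feedback inhibitor of the pathway, went from 5.28 CPM (15 UMIs) to 48.2 CPM (142 UMIs), 9.12-fold (5.35 to 16.7), Cebpd, a transcription factor of the acute phase, from 192 to 847 CPM, 4.42-fold (4.03 to 4.86), and Osmr from 96.5 to 247 CPM, 2.56-fold (2.23 to 2.95). Stat3 itself stood at 161 and 258 CPM, 1.61-fold (1.43 to 1.81). The metallothioneins Mt1 and Mt2, small metal-binding proteins, went from 257 to 2282 CPM (8.87-fold, 8.22 to 9.59) and from 67.3 to 846 CPM (12.6-fold, 10.9 to 14.6). Of 10 measured genes of glial homeostasis 2 fell (median -0.20). One was Glul, the glutamine synthetase that detoxifies glutamate, at 5695 and 2736 CPM, 2.08-fold lower (2.03 to 2.14). The water channel Aqp4 stood at 1437 and 1015 CPM and the potassium channel Kcnj10 at 216 and 225 CPM, neither past 2-fold. Vegfa, the main angiogenic growth factor, went from 145 to 69.3 CPM in Müller glia, 2.09-fold lower (1.76 to 2.48). In macrophages and monocytes Vegfa went the other way, from 7.06 CPM (15 UMIs) to 34.3 CPM (191 UMIs), 4.86-fold higher (2.87 to 8.86). It stood at 20.1 and 30.9 CPM in rods and at 9.6 and 9.12 CPM in endothelial cells, neither past 2-fold. The genes named by the rule as lower in Müller glia included Spc25, a kinetochore protein, at 820 and 264 CPM, 3.10-fold lower (2.86 to 3.37). Of the marker lists of other cells, macrophage markers in Müller glia stood at 12.3 and 30.2 CPM, neutrophil markers at 1.76 and 19 CPM and fibroblast markers at 97.9 and 137 CPM, and their part in these values was not tested.

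**Figure D4:**
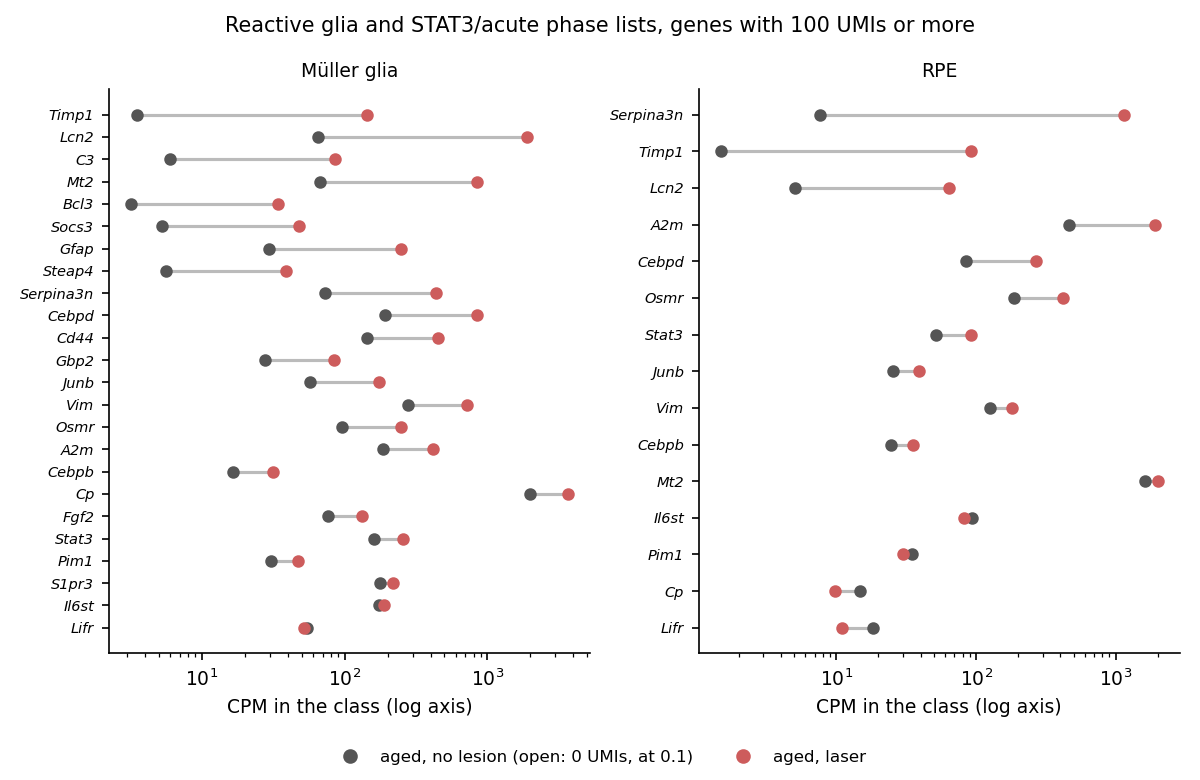
CPM (log axis) of the measured genes of the reactive glia and STAT3 and acute phase lists in Müller glia and RPE cells, with dark points for the aged eye with no lesion and red points after laser. Lcn2 in Müller glia moves from 65.5 to 1897 CPM and Serpina3n in RPE cells from 7.57 to 1151 CPM.

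RPE cells stood between mural cells (4.28%) and rods (2.88%) in the share of genes past 2-fold (3.15%). Their largest change was in a gene of the same set. Serpina3n was at 7.57 CPM (51 UMIs) in 1054 cells with no lesion and at 1151 CPM (2107 UMIs) in 298 cells after laser, 152-fold higher (115 to 205), with 8.21% of its UMIs in 1 cell. At 1000 UMIs per cell it was found in 0.793% of 1009 and 47.0% of 270 RPE cells (2.18% and 66.4% unthinned, 45 and 28 cells left out), and in cones in 0.476% and 3.36%. The transcript was thus spread over many of the RPE cells found after laser. Chil1, a chitinase-like secreted protein of inflamed tissue, went from 186 to 1481 CPM, 7.96-fold (7.44 to 8.51), A2m, a broad protease inhibitor of plasma, from 465 to 1894 CPM, 4.08-fold (3.88 to 4.28), and Cebpd from 84.3 to 268 CPM, 3.17-fold (2.81 to 3.59). Osmr, which also rose in Müller glia, went from 187 to 418 CPM, 2.23-fold (2.04 to 2.45). Of the reactive glia list 5 of 7 measured genes rose in RPE cells (median 1.67), 4 of 4 with the guard. Of the STAT3 and acute phase list 4 of 11 rose (median 0.61), 3 of 6 with the guard. Over all genes measured in the class 1.15% were higher and 1.37% lower. Members that reach the floor only through the laser library had to differ. Timp1, at 1.48 and 92.3 CPM, had 46.7% of its UMIs in 1 cell, and Lcn2 stood below the guard.

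Of 10 measured genes of the visual cycle list 1 was past 2-fold lower in RPE cells and none higher, and none of the 9 that kept the guard passed. Over all genes measured in RPE cells 1.15% were higher and 1.37% lower. Single genes outside that list were lower. Enpp2, the lysophospholipase autotaxin, went from 2256 to 885 CPM, 2.55-fold lower (2.42 to 2.68), and at 1000 UMIs it was found in 80.1% and 44.4% of cells. Sostdc1, an antagonist of bone morphogenetic protein and Wnt signals, went from 401 to 143 CPM, 2.81-fold lower (2.48 to 3.21). Vegfa stood at 232 and 141 CPM, 1.64-fold lower (1.44 to 1.88), short of 2-fold. Fibroblast markers were at 260 and 535 CPM and Müller markers at 21.1 and 47.5 CPM in RPE cells. Rod markers went the other way, from 128 to 30.6 CPM. The part of RNA of these other cells was not tested. In the young pair Serpina3n in RPE cells was at 0.245 CPM (1 UMI) and 60.7 CPM (146 UMIs), and Enpp2 at 2249 and 1467 CPM.

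The genes named in macrophages and monocytes included an enzyme, a secreted matrix protein and chemokines. Arg1, which turns arginine into ornithine, was at 3.29 CPM (7 UMIs) with no lesion and 414 CPM (2306 UMIs) after laser, 126-fold higher (60.9 to 313). Spp1, the secreted matrix protein osteopontin, went from 517 CPM (1099 UMIs) to 5496 CPM (30592 UMIs), 10.6-fold (10.0 to 11.3). Single cells held 18.6% and 16.3% of these UMIs. At 1000 UMIs per cell Arg1 was found in 0% of 178 cells, which allows a share of up to 1.69%, and in 6.31% of 523 cells (1.12% and 13.6% unthinned), and Spp1 in 9.55% and 22% (20.1% and 47.9% unthinned). Cxcl13, the chemokine that draws B cells, went from 7.06 CPM (15 UMIs) to 546 CPM (3041 UMIs), 77.4-fold (46.8 to 138), found in 0.562% and 13.8% of cells. In the young pair it stood at 0 and 0.677 CPM.

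The chemokine list had 7 of 17 members higher and 1 lower (median 0.75), and with the guard 6 of 14 higher and 1 lower. Over all genes measured in the class 3.68% were higher and 2.26% lower. The floor over the pair lets in members that are high only after laser, which favours rises. Ccl8 went from 682 to 1981 CPM (2.90-fold), Ccl12 from 58.8 to 211 CPM (3.59-fold), Ccl2 from 125 to 289 CPM (2.30-fold) and Ccl7 from 171 to 367 CPM (2.15-fold), all ligands that draw monocytes. Cxcl9, a chemokine induced by interferon gamma, went from 132 to 5.57 CPM, 23.7-fold lower (16.4 to 35.6), but 42.0% of its UMIs lay in 1 cell. Of the lipid-handling list 5 of 18 rose, with Fabp5, a fatty acid carrier, at 1194 and 2774 CPM (2.32-fold) and Ctsl, a lysosomal protease, at 266 and 1082 CPM (4.06-fold, 3.72 to 4.43). Gpnmb, a marker of lipid-laden macrophages, stood at 1245 and 1041 CPM, and Trem2, their lipid receptor, at 537 and 504 CPM (0.938-fold, 0.875 to 1.01). None of 7 measured genes of antigen presentation by MHC class II passed 2-fold (median -0.09), and the invariant chain Cd74 stood at 3018 and 2610 CPM. The cytokine Il1b stood at 408 and 246 CPM, 1.66-fold lower (1.52 to 1.81), and Folr2, a folate receptor of resident macrophages, went from 120 to 374 CPM, 3.12-fold (2.74 to 3.57). Markers that chose the class also differed: Mrc1 was found in 56.4% and 69.5% of cells and F13a1 in 45.3% and 66.3%, and Lyve1, a receptor of resident macrophages that was no marker, in 15.1% and 32.2% (unthinned, at medians of 10851 and 8680 UMIs per cell). A different make-up of the class and changes within its cells cannot be told apart here. Fibroblast markers stood at 29.7 and 124 CPM and neutrophil markers at 112 and 131 CPM in this class, and their part was not tested.

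**Figure D5:**
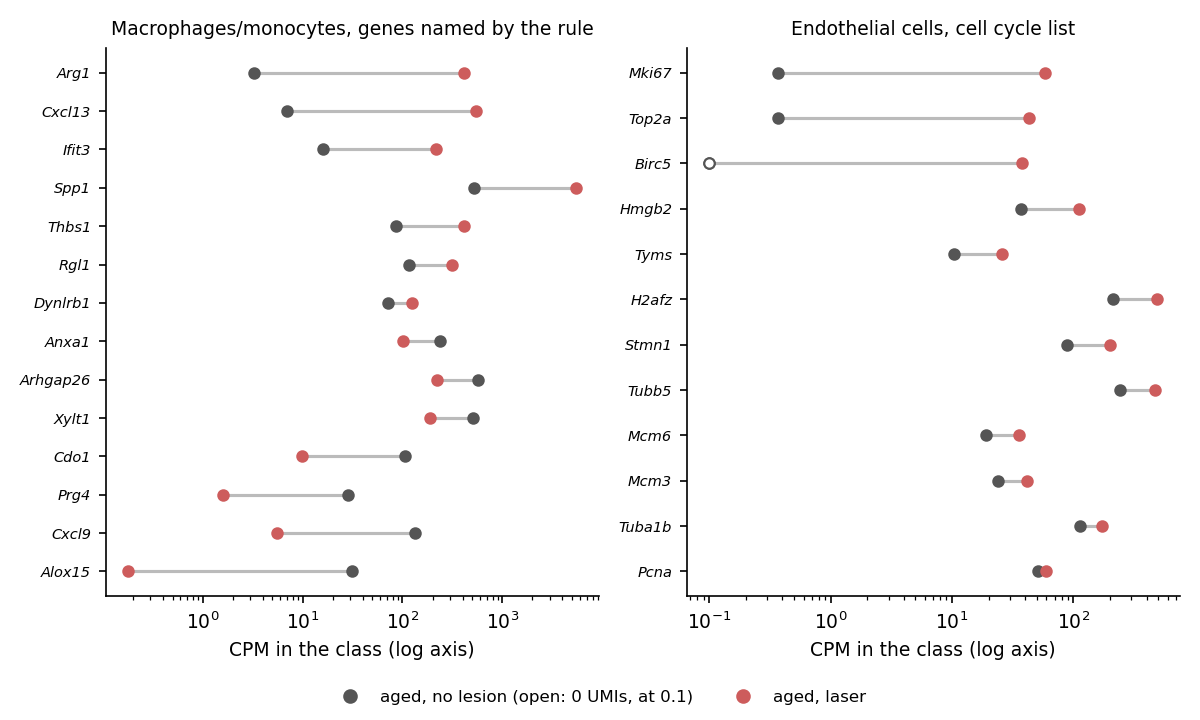
CPM (log axis) of the genes named by the rule in macrophages and monocytes and of the cell cycle list in endothelial cells, dark points with no lesion and red points after laser. An open point marks 0 UMIs, drawn at 0.1. Arg1 moves from 3.29 to 414 CPM and Mki67 from 0.369 to 58.3 CPM.

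Endothelial cells gained transcripts of cell division. Of the cell cycle list 7 of 12 measured genes were higher and none lower (median log2 ratio 1.18), where 3.18% of all genes were higher. Of the 8 with at least 50 UMIs in the unlesioned library 3 passed, and the other 4 genes that rose reached the floor through the laser library and had to differ. Summed over all 22 genes of the list, with no floor, the level went from 814 to 1910 CPM, 2.35-fold (2.24 to 2.46). Mki67, present only in cycling cells, had 1 UMI in 406 cells with no lesion and 198 UMIs in 450 cells after laser, a ratio of 158 (28.0 to 6266), with 24.7% in 1 cell. Birc5, a protein of the dividing chromosome, had 0 and 127 UMIs, at least 33.8-fold higher against a floor of 3 counts. At 1000 UMIs Mki67 was found in 0% of 392 cells, which allows up to 0.765%, and in 2.04% of 441 (0.246% and 5.11% unthinned). Broader genes moved less: Stmn1, a regulator of microtubules, went from 88.9 to 199 CPM (2.23-fold) and Pcna, the DNA polymerase clamp, stood at 51.3 and 59.4 CPM.

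Genes of vessel growth moved in both directions, with 4 of 19 higher and 3 lower (median -0.44), and with the guard 3 of 17 higher and 2 lower. Over all genes measured in endothelial cells 3.18% were higher and 1.25% lower. Aplnr, the apelin receptor, went from 14.4 CPM (39 UMIs) to 99.4 CPM (338 UMIs), 6.91-fold (4.95 to 9.89), and its ligand Apln from 14.0 to 40.0 CPM, 2.85-fold (1.98 to 4.20). Esm1, which marks tip cells, went from 324 to 99.4 CPM, 3.25-fold lower (2.87 to 3.70), and Angpt2, the antagonist ligand of the Tie2 receptor, from 60.5 to 27.1 CPM, 2.24-fold lower (1.72 to 2.92). The receptors of VEGF stood at 2118 and 1300 CPM for Kdr and at 5239 and 3482 CPM for Flt1, neither past 2-fold. Selp, the P-selectin that slows leukocytes, went from 53.5 to 290 CPM, 5.43-fold (4.55 to 6.51), and Ackr1, a chemokine carrier of venules, from 3.69 CPM (10 UMIs) to 36.8 CPM (125 UMIs), 9.97-fold (5.24 to 21.3). Ackr1 was found in 1.72% and 6.89% of endothelial cells (unthinned). Other proportions of venular cells in the class and changes within its cells cannot be told apart. Other adhesion genes did not pass: Icam1 stood at 224 and 219 CPM and Vcam1 at 120 and 128 CPM. Glycolytic genes rose for 3 of 16, with Gapdh at 249 and 580 CPM (2.32-fold), while the glucose carrier Slc2a1 went from 407 to 178 CPM, 2.29-fold lower (2.07 to 2.53). Of the interferon gamma list 8 of 18 rose (median 0.94).

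In fibroblasts chemokine genes rose, with a part of the complement and matrix lists. Cxcl13 rose here too, from 7.74 CPM (76 UMIs) to 224 CPM (2965 UMIs), 28.9-fold (23 to 36.8). Of the chemokine list 9 of 16 rose and none fell (median 1.12, 5 of the 9 with the guard), where 4.21% of all genes were higher and 0.991% lower. The floor over the pair lets in members that are high only after laser, which favours rises. Among the 9 was Cxcl5, which draws neutrophils, with 25.7 and 70.3 CPM (2.74-fold). The neutrophil and monocyte attractants Cxcl1 (123 and 126 CPM) and Ccl2 (42.7 and 44.0 CPM) did not pass. Of the complement list 6 of 14 rose and none fell (median 0.82), 2 of 9 with the guard, where 4.21% of all genes were higher. C3, the central complement protein, went from 347 to 966 CPM, 2.78-fold (2.68 to 2.89), and Cfb, the factor B of the alternative pathway, from 74.7 to 203 CPM, 2.72-fold (2.51 to 2.96). Il6, a cytokine of the gp130 family, went from 37.2 to 117 CPM, 3.14-fold (2.80 to 3.53). Of 24 measured matrix genes 4 rose and 1 fell (median 0.26). Col3a1, the collagen of early wounds, went from 952 to 3119 CPM, 3.28-fold (3.20 to 3.35), and Postn, periostin, from 149 to 349 CPM, 2.34-fold (2.21 to 2.49), while Col1a1 stood at 1409 and 2249 CPM and Acta2, the actin of myofibroblasts, stood at 134 and 211 CPM, neither past 2-fold. Ccn2, the connective tissue growth factor, went from 1991 to 880 CPM, 2.26-fold lower (2.21 to 2.32). Cell cycle genes rose for 8 of 17 (median 0.50), 6 of 14 with the guard, but for 1 of the 9 with at least 50 UMIs in the unlesioned library, and the summed level of the list went from 775 to 1051 CPM, 1.36-fold (1.32 to 1.40). The largest ratio was that of Top2a at 2 and 343 UMIs (127-fold, 34.9 to 1053), with 21.0% of its UMIs in 1 cell.

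Mural cells had 3 of 22 matrix genes higher and 3 lower (median 0.27), and with the guard 3 of 19 higher and 2 lower. Over all 4821 genes measured in the class 2.03% were higher and 1.45% lower. The markers of the class differed as well: Cnn1, of smooth muscle, was found in 52.1% and 28.1% of cells, and Kcnj8 and Abcc9, of pericytes, in 14.1% and 30.5% and in 19.2% and 41.9% (unthinned, at medians of 7272 and 5336 UMIs). Other proportions of these cells and changes within them cannot be told apart. Col6a1, a chain of collagen VI, went from 78.2 to 191 CPM, 2.44-fold (1.93 to 3.09), while Fn1, fibronectin, at 151 and 42.2 CPM, had 78.4% of its UMIs in 1 cell. Ifitm3, an interferon-induced membrane protein, went from 300 to 1295 CPM there, 4.32-fold (3.89 to 4.81).

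Neurons shared a smaller set of changes. Stat3 rose in rods from 123 to 329 CPM (2.67-fold, 2.38 to 2.99), in bipolar cells from 108 to 242 CPM (2.26-fold, 2.07 to 2.46) and in cones from 106 to 227 CPM (2.13-fold, 1.92 to 2.37), against 1.61-fold in Müller glia. At 1000 UMIs it was found in 9.53% and 24.7% of rods, 9.14% and 22.7% of bipolar cells, and 9.52% and 18.5% of cones. Fgf2, a growth factor that protects photoreceptors, went from 81.5 to 291 CPM in rods, 3.58-fold (3.14 to 4.08), and from 12.6 to 50.7 CPM in cones, 4.03-fold (3.06 to 5.33). Edn2, the endothelin that stressed photoreceptors send to Müller glia, went from 20.8 to 73.5 CPM in rods, 3.53-fold (2.72 to 4.61). Rods also had 8 of 14 immediate early genes higher (median 1.05), 1 of them with the guard, where 2.26% of all genes were higher and 0.711% lower. Lower in rods were Dcc, a netrin receptor, at 431 and 139 CPM (3.09-fold lower, 2.74 to 3.50), and Dpp10, a subunit of potassium channels, at 3566 and 1274 CPM (2.80-fold lower, 2.69 to 2.91). In the young pair Dpp10 stood at 14.1 and 20.6 CPM. Bipolar cells raised Irf9, the DNA-binding partner of STAT2, from 5.27 to 30.1 CPM, 5.71-fold (3.98 to 8.47).

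T cells, similar in number in both libraries, had 45 genes higher and 18 lower of 3817. None of 15 measured genes of T cell effector function passed 2-fold, where 1.18% of all genes were higher and 0.472% lower. The markers Cd8a and Cd8b1 of cytotoxic T cells were found in 58.7% and 40.5% and in 69.0% and 47.6% of cells (unthinned, at medians of 6605 and 4890 UMIs). Ccl5, a chemokine of effector cells, stood at 3087 and 3373 CPM, Ifng, which encodes interferon gamma, at 83.6 and 81.1 CPM, and Pdcd1, the inhibitory receptor PD-1, at 137 and 158 CPM. Ifit3 rose from 20.7 CPM (23 UMIs) to 125 CPM (114 UMIs), 6.04-fold (3.84 to 9.92).

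Genes private to a class were counted as those past 2-fold in 1 class and within 1.5-fold in every other class that measured them, with at least 3 others. At 500000 UMIs 79 of 2011 genes (3.93%) met this, 51 higher and 28 lower, and with all UMIs 305 of 9386 (3.25%). Macrophages and monocytes held 29 higher and 41 lower of the 305, Müller glia 36 and 9, fibroblasts 37 and 8, RPE cells 3 and 30, endothelial cells 23 and 7, rods 22 and 5, mural cells 11 and 9, bipolar cells 18 and 2, cones 9 and 3 and T cells 2 and 1. These counts were made at unequal depth, with 6736812 and 1831293 UMIs in RPE cells. At 500000 UMIs macrophages and monocytes held 4 higher and 9 lower of the 79, RPE cells 1 and 4 and Müller glia 10 and 2. Of the 79, those still past 2-fold with all UMIs were 6 in mural cells, 5 each in macrophages and endothelial cells, 3 each in rods and Müller glia, 2 each in fibroblasts and T cells, and 0 in RPE cells, bipolar cells and cones. That a gene was not past 1.5-fold elsewhere is a description of levels and not a test.

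Dclk1, a kinase that binds microtubules, was private to Müller glia, with 84.2 CPM (239 UMIs) and 358 CPM (1054 UMIs), 4.25-fold (3.69 to 4.91), followed by Ap3b2, a subunit of a neuronal sorting adaptor, at 16.6 and 62.8 CPM (3.79-fold), and the tubulin Tubb2a at 32.4 and 111 CPM (3.43-fold). In macrophages and monocytes Rgl1, a regulator of Ral proteins, went from 116 to 317 CPM, 2.72-fold (2.38 to 3.13), and Cdo1, the cysteine dioxygenase, from 105 to 9.88 CPM, 10.6-fold lower (7.88 to 14.5). Fscn1, the actin bundling protein fascin, was private to endothelial cells at 30.3 and 110 CPM (3.65-fold, 2.86 to 4.69), and Tnxb, the matrix protein tenascin X, to fibroblasts at 127 and 342 CPM (2.71-fold, 2.54 to 2.88). Mural cells had Foxo1, a transcription factor that responds to insulin, at 24.6 and 66.4 CPM (2.70-fold) and Itga3, an integrin chain, at 57.2 and 12.6 CPM (4.52-fold lower, 2.47 to 9.07). Rods had Lamtor5, a subunit of the lysosomal Ragulator complex, at 80.4 and 209 CPM (2.60-fold, 2.25 to 2.99), and Slc25a37, the iron carrier mitoferrin, at 50.6 and 132 CPM (2.61-fold, 2.19 to 3.13). Bipolar cells had Cep112, a centrosomal protein, at 1088 and 466 CPM (2.33-fold lower), and RPE cells Jarid2, a cofactor of Polycomb repression, at 89.1 and 33.9 CPM (2.63-fold lower). With no lesion Jarid2 was highest in rods, RPE cells had 0.162 of the rod level, and the part of rod RNA was not tested.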

How the data were processed

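The 4 libraries (10x Genomics Chromium, 1 per group) sampled retina plus choroid of wild-type mice. The authors deposited raw counts, the UMIs of 24783 genes in 36701 cells, as 1 table. Per the submitters' processing notes the reads were handled with Cell Ranger and Seurat 4.1.1 and the build was mm10. Neither the version of Cell Ranger nor the gene annotation is given in the sources used here. Column codes gave each cell's library. The code y was read as young and e, the only other code, as aged, and 0 columns stayed unmapped. No cell of the aged libraries had under 502 UMIs.

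Cells were classed by 139 markers of 24 classes found in the matrix. The rules that Müller glia need Rlbp1 (13 and 38 cells lost) and that cells with at least 2 of 6 adipocyte genes are set aside were added after the values were seen. Predicted doublets (Scrublet score over 0.2 in scanpy 1.11.5, 246 and 272 cells) stayed in the values and were left out as an alternative. The UMIs of a class were added up within each library and scaled to CPM by total UMIs, after thinning to 500000 UMIs where classes are compared and with all UMIs for single genes. Classes needed 50 cells in both libraries, 20 for neutrophils, and genes 100 UMIs over the pair. CPM carry exact Poisson intervals, ratios exact conditional binomial intervals and shares of cells Clopper-Pearson intervals. The limit beside a share of 0 is 3 counts of the total. Where a library had 0 UMIs the fold uses a floor of 3 counts. The computation was tested on simulated data. Alternatives were TMM scaling (edgeR 4.0.16, R 4.3.3), a floor of 50 UMIs, 200000 UMIs, the mean of the cells' own CPM, doublets left out, the free RNA guard, stricter class rules and rods out of the denominator. Computation used Python 3.11.15 with pandas 2.3.3, anndata 0.12.19, scipy 1.17.1, numpy 2.4.6 and, for figures, matplotlib 3.10.9.

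The members, the 31 gene lists (483 genes, 7 of them not found in the matrix) and the tests were chosen with earlier results of these data known. The rule for named genes took, per class and side, 4 genes by the interval bound nearest to no change among genes of at least 20 UMIs that keep the guard, 20 genes shared by the most classes, up to 3 genes per class and side past 2-fold in that class alone, and up to 4 members per list and class. Left out were class markers, unnamed gene models and genes of mitochondrial DNA, ribosomal proteins, haemoglobins, antibodies, Xist, Tsix and Y-linked genes. Other named genes, such as Aqp4, Vegfa, Esm1, Icam1, Il1b, Trem2 and the genes of the young pair, were chosen after their values were seen. Some genes are not reported here. Reads of near-identical copies (Ifit3, Serpina3n, H2-K1, Stfa1) may be split or lost, and how the counting treated them is not given in the sources used here.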

Additional observations from a re-analysis of the deposited data

Results flagged for a closer look

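For 2 genes taken by the naming rule the aged and the young pair were each past 2-fold in opposite directions, with 1 library a group. Cxcl10 in RPE cells had a log2 ratio of -2.49 in the aged pair, from 9.20 CPM with no lesion to 0 CPM after laser, a bound set by 3 counts, with 93.5% of its UMIs in 1 cell, and 1.81 in the young pair, from 3.43 CPM (14 UMIs) to 12.1 CPM (29 UMIs). Stfa1, a cystatin of neutrophils, had a log2 ratio of -3.59 in the aged pair, from 750 to 62.1 CPM with 48.3% of its UMIs in 1 cell, and 3.23 in the young pair, from 27.6 CPM (1 UMI) to 259 CPM (21 UMIs). Cpne8 in macrophages and monocytes, private to the class but not taken by the rule, was 3.27-fold higher in the aged pair and 2.54-fold lower in the young pair. Other named genes moved in opposite directions with the young pair short of 2-fold, such as Rgl1 in macrophages and monocytes, 2.72-fold higher and 1.83-fold lower. The difference between ages was not tested.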

How the results depend on the processing

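No paired analysis was possible because each group has 1 library, which also leaves no replicate to leave out. Shares of genes past 2-fold are given as percent of genes measured. At 200000 UMIs they were 5.16% in RPE, 5.14% in rods, 3.45% in cones, 3.18% in bipolar cells, 9.17% in Müller glia, 7.80% in endothelial cells, 7.17% in fibroblasts and 3.60% in T cells, and 144 genes were private to 1 class. With a floor of 50 UMIs they were 2.12% in cones, 2.61% in bipolar cells and 2.61% in T cells, with 47 genes higher in 3 or more classes and 247 private. As the mean of the cells' own CPM they were 1.99% in RPE, 0.662% in bipolar cells, 3.08% in Müller glia and 2.26% in endothelial cells, with 34 private. With all UMIs and 100 CPM or more they were 1.69% in RPE, 0.768% in bipolar cells and 0.717% in T cells, with 41 private. Bipolar cells had 0.916% without doublets, and T cells 1.73% when cells with 2 markers of another class were left out. Macrophages could not be ranked under that last rule, with 57 and 237 cells left. It gave share ratios of 0.561 in rods, 2.91 in bipolar cells, 1.53 in fibroblasts and 3.44 in macrophages, and reversed those of Müller glia (1.01), endothelial cells (1.01) and T cells (1.13). Without rods in the denominator bipolar cells had 2.09 and fibroblasts 1.04. With the guard 0 genes were lower in 3 or more classes. The cause of these shifts was not tested. TMM scaling moved log2 ratios by -0.0602 to 0.0613 and kept all 174 gene values within their spread, but in bipolar cells the genes past 2-fold became 8 higher and 19 lower, so that 29.6% were higher in place of 48.3%. The mean of the cells' own CPM moved 36 of 167 gene values, the rule of 2 markers 72 of 168 and the stricter relative rule 12 of 173, with none reversed. Depth limits the thinned counts: between 41.4% (bipolar cells) and 74.7% (fibroblasts) of the genes past 2-fold at 500000 UMIs were also past it with all UMIs.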

Other observations

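Neutrophils were too few with no lesion to be ranked (27 and 110 cells), and chemokine genes were among those past 2-fold. Ccl3, a chemokine of activated phagocytes, was at 51.7 CPM (6 UMIs) with no lesion and 1465 CPM (543 UMIs) after laser, 28.3-fold higher (12.9 to 77.6), and was found in 3.70% and 35.5% of cells at 1000 UMIs. Its relative Ccl4 went from 319 to 1749 CPM, 5.49-fold (3.94 to 7.86), and the neutrophil attractant Cxcl2 from 1336 to 6823 CPM, 5.11-fold (4.34 to 6.05). Hilpda, a lipid droplet protein induced by low oxygen, had 0 and 120 UMIs, at least 12.5-fold higher. Cd63, a lysosomal membrane protein whose level was highest in RPE cells, went from 86.2 CPM (10 UMIs) to 1387 CPM (514 UMIs), 16.1-fold (8.68 to 33.8). Il1b stood at 9323 and 6922 CPM. The interferon list went from 1370 to 4966 CPM (3.62-fold). The median neutrophil held 275 UMIs of the class markers with no lesion and 48.5 after laser, so the cells of the 2 libraries also differed in the markers that chose them.

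Of 9 measured genes of the senescence and p53 list 5 rose in Müller glia, 2 of 6 with the guard and 1 of 5 with at least 50 UMIs in the unlesioned library, where 3.49% of all genes were higher. Among the 5 were Cdkn1a, the cell cycle inhibitor p21, at 7.40 and 40.4 CPM (5.46-fold, 3.42 to 9.15) with 21.8% of its UMIs in 1 cell and below the guard, and Bax, which opens mitochondria in apoptosis, at 28.5 and 68.2 CPM (2.39-fold, 1.84 to 3.14). Cryab, a small heat shock protein of the crystallin family, was at 308 and 675 CPM (2.19-fold, 2.02 to 2.38). Of 19 respiratory chain genes 7 were higher in Müller glia and none passed 2-fold in the other ranked classes. The median share of mitochondrial UMIs per Müller cell was 0.280% with no lesion and 0.943% after laser, and 4 of 12 immediate early genes and 2 of 8 heat shock genes were higher in the class. Their part in these values was not tested.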
